A study of Drosophila melanogaster with 4 samples.

Results

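The NK homeobox and Dorsocross gene clusters of Drosophila melanogaster were described by the intervals of dRING enrichment that overlap 2 windows of FlyBase release 5. The NK window is 3R from 17190000 to 17310000 (120 kb), chosen for the 6 homeobox genes tin, bap, lbl, lbe, C15 and slou. The Dorsocross window is 3L from 8985000 to 9060000 (75 kb), chosen for the T-box genes Doc3, Doc2 and Doc1. The windows were chosen by gene cluster and position, with the cover and the scores in these lists already known. The study used sequencing of immunoprecipitated chromatin (ChIP-seq) with the dRING antibody Q3200 in wild-type embryos of the Oregon-R strain, aged 14 to 16 h. It has 2 ChIP libraries and 2 input libraries, numbered as replicates 1 and 2. Whole embryos mix tissues, so an interval cannot be ascribed to heart, muscle or any other cell type. The intervals are called regions in the list of the whole series and clusters in the list of a single library. Of 7386 regions on the 6 chromosome arms, 22 overlapped the windows, 15 in the NK window and 7 in the Dorsocross window. Replicate 1 had 17 of its 3458 clusters there, 13 in the NK window and 4 in the Dorsocross window, and replicate 2 had 20 of its 3048, with 12 and 8. Each interval carries a score set by the authors, whose scale is not stated. Depth is unknown, because the lists hold intervals and no counts of reads. The labels do not say whether the replicates are separate collections of embryos, so their spread may be technical.

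dRING is a fly RING-finger protein of the Polycomb complex PRC1 and ubiquitinates histone H2A at Polycomb targets. Polycomb complexes keep developmental regulators silent in cells where they are not used, and in flies they are recruited through Polycomb response elements. The genes for which the windows were chosen are such regulators of the heart, the muscles and the dorsal ectoderm. Tinman (tin) specifies dorsal mesoderm and heart, and bagpipe (bap) specifies the visceral mesoderm that forms gut muscle. The ladybird genes (lbe and lbl) and slouch (slou) set the identity of single muscles, and the ladybird genes also act in a subset of heart cells. C15, also known as clawless, acts at the tip of the developing leg. The Dorsocross genes (Doc1, Doc2 and Doc3) encode closely related T-box factors needed for the amnioserosa and for heart cells.

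The gene names are those for which the windows were chosen. They were not placed on single regions, because the gene table at hand is of release 6 and coordinates were not converted. All 9 genes were found in that table by symbol. In its order along 3R, tin is followed by bap, lbl, lbe, C15 and slou, with 6 other protein-coding genes and 6 long non-coding RNA genes among them. The protein-coding ones are Ugt49B2, CG7907, CheB93a and CheB93b between bap and lbl, Fancm between lbe and C15, and sp3 between C15 and slou. Along 3L the order is Doc3, CG5194, Doc2, the long non-coding RNA gene CR46451 and Doc1. The stretch from Doc3 to Doc1 is shorter than the Dorsocross window. The stretch from tin to slou, in contrast, is longer than the NK window. So are those from tin to C15, from bap to C15, from bap to slou and from lbl to slou. On the release 6 distances, the NK window therefore cannot hold all 6 of the genes it was named for. It cannot hold tin or bap together with C15 or slou, nor lbl together with slou. The sequence on each side of it is described further below.

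Most of both windows was listed as enriched for dRING. Regions of the series list covered 95.0 kb of the NK window (79.2%) and 58.5 kb of the Dorsocross window (78.0%), against 14.9% of the rest of arm 3R and 11.5% of the rest of arm 3L. Clusters covered 60.3% of the NK window in replicate 1 and 32.4% in replicate 2, a mean of 46.4% ± 19.7 (SD, n = 2). Clusters covered 69.7% of the Dorsocross window in replicate 1 and 52.2% in replicate 2, a mean of 61.0% ± 12.4 (SD, n = 2). In the rest of arm 3R the corresponding shares were 8.85% and 6.37%, and in the rest of arm 3L they were 6.09% and 4.91%. Bases covered in both libraries made up 31.5% of the NK window and 49.3% of the Dorsocross window, against 5.16% of the rest of 3R, 3.75% of the rest of 3L and 4.66% of all 6 arms. The windows were chosen with the enrichment in these lists known, so their high cover is a description of the choice, and no test was made of it.

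**Figure D1:**
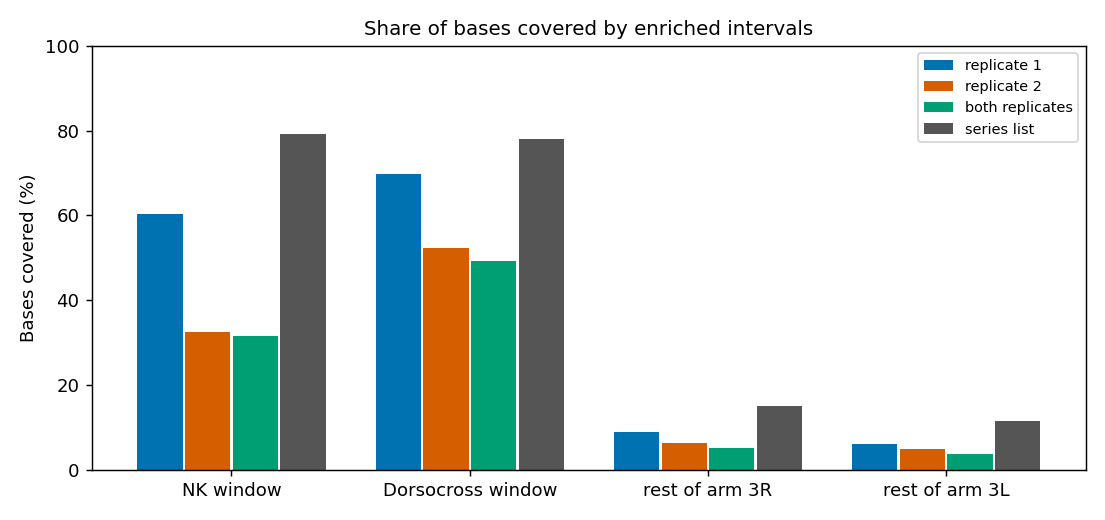
Share of bases (%) covered by clusters of replicate 1, clusters of replicate 2, clusters of both and regions of the series list, in the NK window, the Dorsocross window and the rest of the 2 arms that hold them; each bar is 1 value with no error. In the series list the windows stand at 79.2% and 78.0%, the rest of the arms at 11.5 to 14.9%, and replicate 1 covers more than replicate 2 in every stretch shown.

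The windows differed in how their enriched sequence was arranged. The series list began at 17200521 in the NK window and ended at 17307214, and 89.1% of the 106.7 kb between was covered. Within the NK window the clusters seen in both libraries formed 2 groups, one from 17200489 to 17220055 and the other from 17252191 to 17302217, with none of the shared clusters in the sequence between them. In the Dorsocross window nearly all shared cover was in a single region of 47.7 kb, with 1 narrow site standing apart from it. Bases covered by both libraries fell into 12 segments in the NK window, with a median of 2.21 kb and a longest of 6.87 kb. In the Dorsocross window there were 8 segments, with a median of 4.58 kb and a longest of 9.30 kb. The shortest of these held 40 bp, from 9025030 to 9025069. It nearly touched the segment from 9021600 to 9025012, which nearly touched that from 9015831 to 9021584. The counts and medians therefore depend on where the lists are cut.

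**Figure D2:**
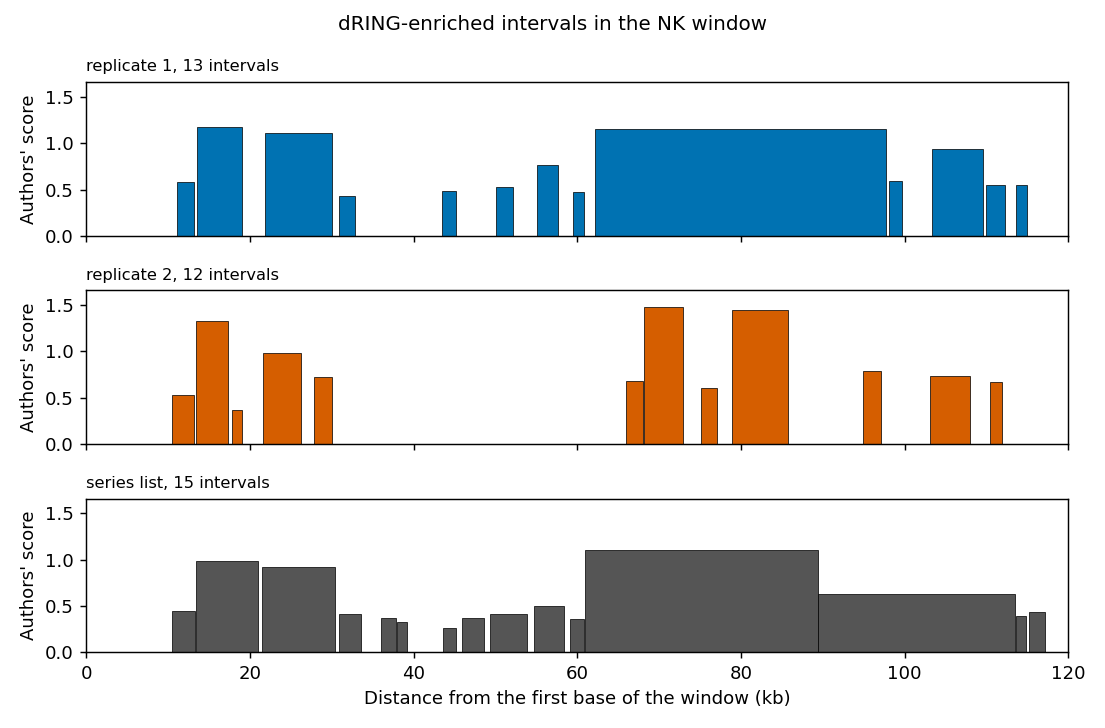
Intervals of replicate 1, replicate 2 and the series list in the NK window; the x axis is the distance from the first base of the window (kb), and the height of a bar is the authors' score, on the same axis in all 3 panels. Replicate 1 holds a single cluster of 35.5 kb where replicate 2 holds 5 shorter ones, and replicate 2 has no cluster over the 35.9 kb in the left middle of the window.

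Of the 15 regions of the NK window, 5 were overlapped by clusters of both libraries, against 28.4% of regions on all arms and 29.5% on arm 3R. Of the others, 6 had a cluster of replicate 1 only, 0 had one of replicate 2 only and 4 had none. By number the share of 33.3% was therefore near that of the arm. Counted at full length, those 5 held 75.6% of the bases of the window's regions, against 53.9% for the shared regions of the whole of arm 3R. An overlap of 1 bp in each library was enough for a region to count. Bases covered in both libraries were 37.8 kb of the 95.0 kb of regions in the window, against 1434 kb of 4149 kb in the rest of 3R. That contrast was smaller. Replicate 1 alone would give 11 regions and 60.3% of the window's bases, and replicate 2 alone 5 regions and 32.4%. All 12 replicate 2 clusters overlapped a replicate 1 cluster, while 6 of the 13 replicate 1 clusters overlapped one of replicate 2, against 76.8% and 63.3% of the clusters of all arms.

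The longest region of the NK window ran from 17250899 to 17279395 (28.5 kb) and had a series score of 1.11. It ranked 9 in length and 528 in score among the 2100 regions of the arms seen in both libraries. Replicate 1 covered 95.5% of it with a single cluster, from 17252191 to 17287677, with a score of 1.16. Replicate 2 covered 54.5% of it with 4 clusters. Their highest score, 1.48, was that of 17258214 to 17262905, and the one from 17268911 to 17275779 had 1.45. The smaller clusters from 17255937 to 17258019 and from 17265175 to 17267052 had 0.68 and 0.61. The enrichment was thus listed as 1 long cluster in replicate 1 and as 2 high-scoring clusters with weaker ones beside them in replicate 2.

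The adjoining region, from 17279443 to 17303516 (24.1 kb), had a lower series score of 0.63. Replicate 1 covered 76.1% of it and replicate 2 covered 35.4%. The end of the long replicate 1 cluster reached into this region, so its score of 1.16 is the highest of replicate 1 in both regions and is not a separate value. A further 3 clusters of replicate 1 lay wholly inside, with scores of 0.59, 0.93 and 0.55. The highest of these ran from 17293296 to 17299587, and the overlapping replicate 2 cluster from 17293169 to 17298025 had 0.73. The strongest replicate 2 cluster of this region, from 17284919 to 17287116, had 0.78. Here neither library had a score as high as the highest of the long region beside it, apart from the cluster that the 2 regions share.

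At the other end of the NK window stood 3 neighbouring regions seen in both libraries, with 90 and 516 bp between them. The region from 17203367 to 17210988 had a series score of 0.98, with a highest cluster score of 1.17 in replicate 1 and 1.33 in replicate 2, a mean of 1.25 ± 0.11 (SD, n = 2). The region from 17211505 to 17220344 had a series score of 0.92, with 1.11 in replicate 1 and 0.99 in replicate 2 (1.05 ± 0.09, SD, n = 2). The smallest, from 17200521 to 17203276, had a series score of 0.45, with 0.59 and 0.53 (0.56 ± 0.04, SD, n = 2). In this group replicate 2 scored higher in 1 region and replicate 1 in 2.

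Starts lay closer together than ends in 2 of the 3 pairs of clusters in this group. The strongest pair of clusters began at 17203474 in replicate 1 and at 17203362 in replicate 2, 112 bp apart, and ended 1661 bp apart. The next pair began 214 bp apart and ended 3828 bp apart, because replicate 2 had a separate cluster from 17217771 to 17219993 with a score of 0.73. In the smallest region the starts were 534 bp apart and the ends 45 bp apart.

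Between the 2 groups enrichment was listed in replicate 1 and not in replicate 2. From 17219994 to 17255936 replicate 2 had no cluster, a stretch of 35.9 kb. Besides the start of its long cluster, replicate 1 had 5 whole clusters there, with scores of 0.43, 0.49, 0.53, 0.77 and 0.48, of which the highest was the one from 17245113 to 17247638. The series list held 8 whole regions there, with scores of 0.26 to 0.50, 5 of them overlapped in replicate 1 and 3 in neither. In the list of replicate 1 the scores of the 5 clusters lay above those of 12.8 to 69.8% of all its clusters. The other regions without clusters in both libraries lay at the far end of the window, from 17303658 to 17304869, seen in replicate 1 with a score of 0.55, and from 17305198 to 17307214, seen in neither.

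**Figure D3:**
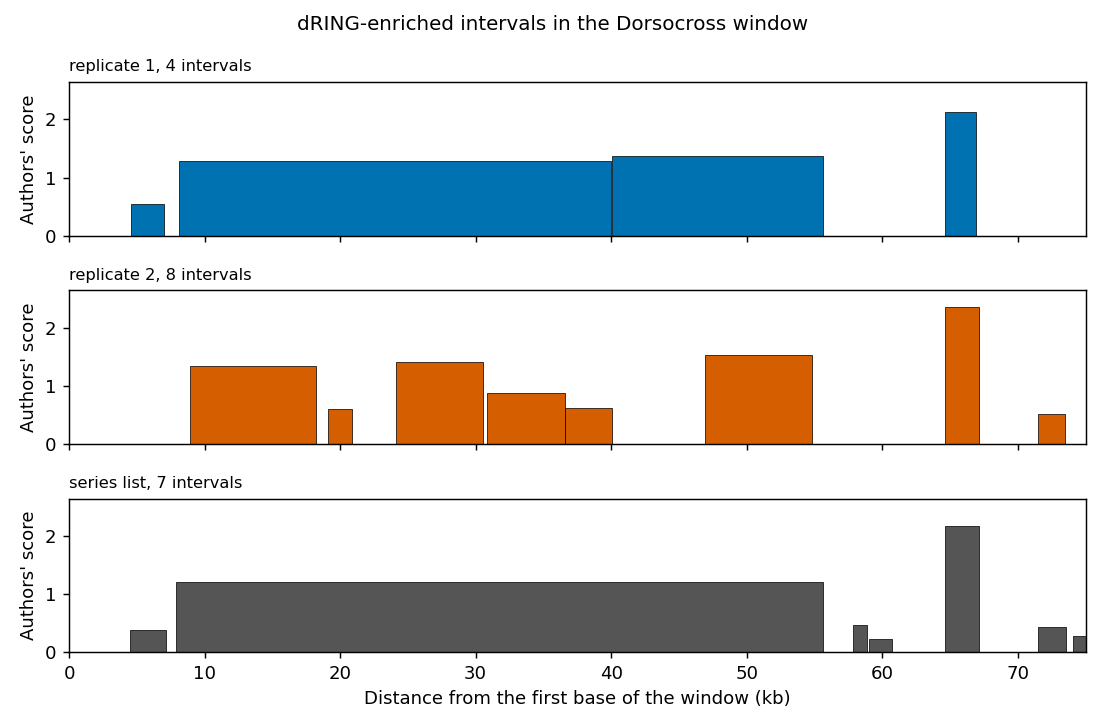
Intervals of replicate 1, replicate 2 and the series list in the Dorsocross window; the x axis is the distance from the first base of the window (kb), and the height of a bar is the authors' score, on the same axis in all 3 panels. The last region of the series list runs past the window and is drawn up to its edge, and the tallest bar in each panel is the narrow site with scores of 2.12, 2.35 and 2.17.

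In the Dorsocross window 2 of 7 regions were overlapped by clusters of both libraries, against 26.9% of regions on arm 3L. Counted at full length, they held 84.9% of the bases of the window's regions, against 46.9% for the shared regions of the whole of arm 3L. Bases covered in both libraries were 36.9 kb of the 58.5 kb of regions in the window, against 916 kb of 2815 kb in the rest of 3L. Of the other regions in the window, 1 had a cluster of replicate 1 only, 1 had one of replicate 2 only and 3 had none. Of the clusters, 3 of 4 in replicate 1 and 7 of 8 in replicate 2 overlapped one of the other library, against 63.3% and 76.8% of the clusters of all arms, which these few clusters do not set apart.

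The long Dorsocross region ran from 8992903 to 9040595 and had a series score of 1.21. It was the longest region of arm 3L and ranked 4 in length and 453 in score among the 2100 regions seen in both libraries. In replicate 1 it was filled to 99.5% by 2 clusters, from 8993104 to 9025012 with a score of 1.28 and from 9025030 to 9040602 with a score of 1.38. In replicate 2 it was covered to 72.7% by 6 clusters. The strongest, from 9031941 to 9039846, had a score of 1.53 and was followed by 1.41 for the cluster from 9009097 to 9015555 and 1.33 for the cluster from 8993907 to 9003210. The other 3 had 0.88, 0.62 and 0.60. The mean of the highest cluster score of each library was 1.45 ± 0.11 (SD, n = 2). The replicate 2 clusters thus formed 3 high-scoring stretches of 6.46 to 9.30 kb within what replicate 1 listed as nearly unbroken enrichment.

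A narrow site from 9049605 to 9052144 (2.54 kb) had the highest scores of both windows. The cluster score was 2.12 in replicate 1 and 2.35 in replicate 2, a mean of 2.24 ± 0.17 (SD, n = 2), and the series score was 2.17. The score of this site lay above those of 97.5% of all clusters in replicate 1 and 94.8% in replicate 2, and it ranked 107 among the 2100 regions seen in both libraries. Each library listed it as 1 cluster, with starts 58 bp apart and ends 236 bp apart. Between the long region and this site, 2 regions of 1.00 and 1.71 kb with scores of 0.46 and 0.23 were overlapped in neither library. The first of these was shorter than any cluster of either library (1301 bp). Elsewhere on the arms, regions as short as 1001 bp were seen in replicate 1 only or in replicate 2 only. Whether length had a part here was not tested.

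The remaining Dorsocross regions had series scores of 0.38, 0.43 and 0.28 in order along the arm, against a median of 0.42 for all regions of the arms. The region from 8989522 to 8992132 was seen in replicate 1 with a score of 0.54 and not in replicate 2. The region from 9056502 to 9058531 was seen in replicate 2 with a score of 0.52 and not in replicate 1. The last, from 9059074 to 9060683, had a series score of 0.28 and was seen in neither.

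Replicate 1 covered more of the sequence than replicate 2, and the cover of replicate 2 lay almost wholly inside it. In the NK window 97.2% of the bases of replicate 2 clusters were also covered in replicate 1, and in the Dorsocross window 94.3%, against 81.0% in the rest of 3R and 76.3% in the rest of 3L. In the opposite direction, replicate 2 covered 52.3% of the bases of replicate 1 in the NK window and 70.7% in the Dorsocross window, against 58.3% and 61.5% in the rest of 3R and 3L. As a share of bases covered in either library, the shared bases were 51.5% in the NK window and 67.8% in the Dorsocross window. The rest of 3R had 51.3% and the rest of 3L 51.7%, so by this measure the NK window was close to its arm. The shares in 1 direction also depend on how much of a stretch the other library covers. Replicate 1 had 1.86 times the bases of replicate 2 in the NK window and 1.33 times in the Dorsocross window, against 1.39 and 1.24 times in the rest of the arms that hold them. These are values of 2 libraries, and no test was made of them. The depth and the threshold behind each list are unknown, and their part in this was not tested.

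Scores of the 2 libraries were set side by side at overlapping clusters. Where clusters of the libraries overlapped, replicate 2 had the higher score in 3 of 6 pairs in the NK window, with a median difference of 0.03 (replicate 2 minus replicate 1, range −0.20 to 0.29). In the Dorsocross window it was higher in 3 of 3 pairs, by 0.05, 0.15 and 0.23. Over all 2188 pairs of the arms it was higher in 76.1%, with a median difference of 0.15. Weighted by length, the mean cluster score of the NK window was 1.00 in replicate 1 and 1.01 in replicate 2, and that of the Dorsocross window was 1.31 and 1.25. For all clusters of the arms the values were 0.93 and 1.11. The sources used here do not say whether a score means the same in each list, so these differences describe the lists only. The same holds for every mean and SD of scores over the 2 libraries, which includes any offset between their lists.

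The 3 long regions of the windows were set beside the other 103 regions of 10 kb or longer seen in both libraries. Those 103 had a median length of 13.7 kb, a median series score of 1.07 (quartiles 0.91 and 1.20), and median cover of 94.7% in replicate 1 and 55.7% in replicate 2. The long Dorsocross region was above the upper quartile of the others in score (1.21) and in replicate 2 cover (72.7%, against an upper quartile of 65.0%). The 28.5 kb NK region, with a score of 1.11 and replicate 2 cover of 54.5%, lay within the quartiles of both (44.8 to 65.0% for cover). The 24.1 kb NK region, with 0.63 and 35.4%, lay below the lower quartile of both. Only 47 bp separated these 2 NK regions, and a replicate 1 cluster ran across the break. Their lengths and places among the others thus depend on where the series list was cut. Replicate 2 had 4 clusters in the 28.5 kb NK region, 3 in the 24.1 kb NK region and 6 in the long Dorsocross region, against a median of 2 and an upper quartile of 3 in the others. Replicate 1 had 1, 4 and 2 clusters in the same 3 regions, against a median of 2 and an upper quartile of 2. The 4 include the end of the long cluster that is also the 1 of the 28.5 kb region. The other 3 lay wholly inside the 24.1 kb region. These values were not adjusted for length, and longer regions leave room for more clusters.

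**Figure D4:**
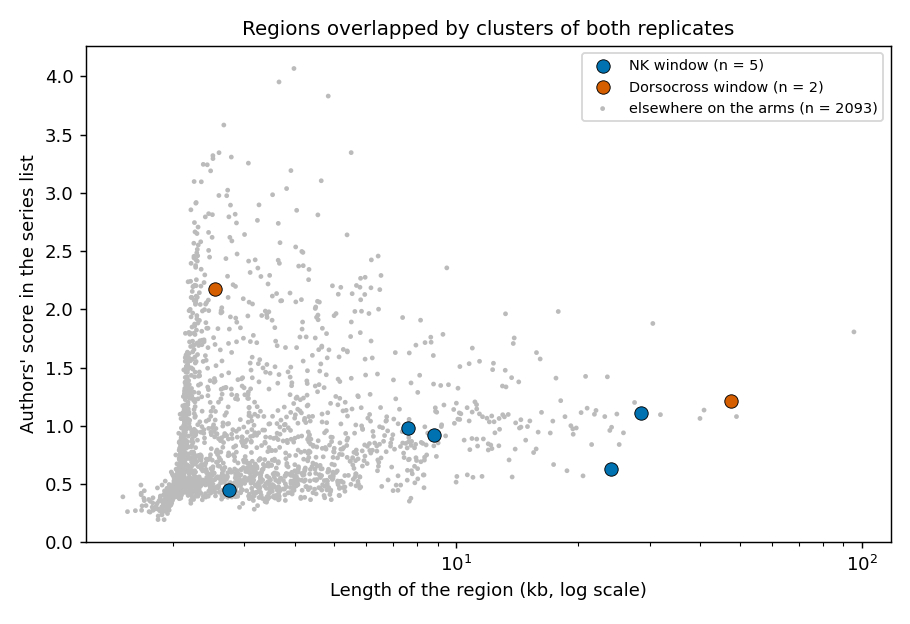
Length (kb, log scale) against the authors' score in the series list for the 2100 regions overlapped by clusters of both libraries; each point is 1 region. The 5 NK regions have scores of 0.45 to 1.11, and of the 2 Dorsocross regions one is long with a score of 1.21 and the other short with a score of 2.17.

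When regions seen in both libraries and less than 10 kb apart were joined, the arms held 1427 domains. Domains were ranked by the full length of their regions in the series list, which is not the sequence covered in both libraries. The NK regions from 17250899 to 17303516 formed a domain with 52.6 kb of regions, which ranked 6 of the 1427. The Dorsocross regions from 8992903 to 9052144 formed one with 50.2 kb, which ranked 8. Clusters of replicate 2 covered 54.5% and 35.4% of the 2 NK regions and 72.7% and 98.1% of the 2 Dorsocross regions. The other NK group, from 17200521 to 17220344, had 19.2 kb and ranked 67. The largest domain, on 3R from 12521907 to 12810523, had 243.1 kb in 14 regions, against 2 regions in each of the first 2 named here.

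The edges of the windows were set by position, and enrichment near them differed. Left of the NK window the nearest region, from 17173143 to 17176139, was seen in both libraries with a series score of 0.99, and 24.4 kb separated it from the first region inside, which had 0.45. On the right, 6.06 kb separated the last region inside, with a score of 0.44, from the next one outside, with 0.41. For the Dorsocross window the nearest regions outside had scores of 0.46 on the left, at a distance of 7.53 kb, and 0.24 on the right, at a distance of 33.9 kb. Those inside had 0.38 and 0.28.

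Because the stretch from tin to slou is longer than the NK window, the 80 kb on each side of it were described too, a width chosen after the lists had been seen. The 2 sides were unlike in cover. On the right, series regions covered 70.5% of the 80 kb, clusters covered 63.9% in replicate 1 and 33.7% in replicate 2, and both libraries covered 33.4%, which is close to the 31.5% inside the window. On the left the same shares were 17.2%, 7.31%, 5.85% and 3.22%. Of 12 regions on the right 5 were seen in both libraries, and of 6 on the left 1 was, against 29.5% of regions on arm 3R, so by number neither side stood far from the arm.

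The strongest region of the right side ran from 17317697 to 17339615 (21.9 kb), with a series score of 1.10. Its highest cluster score was 1.45 in replicate 1 and 1.91 in replicate 2, a mean of 1.68 ± 0.33 (SD, n = 2). The highest clusters inside the NK window had a mean of 1.33 ± 0.22 (SD, n = 2). They lay in different groups, from 17203474 to 17209037 in replicate 1 (1.17) and from 17258214 to 17262905 in replicate 2 (1.48). That SD is therefore not a spread of the libraries at 1 site. Further right, a region from 17373520 to 17380962 with a series score of 0.73 was followed, 5 bp on, by a region of 14.8 kb from 17380968 to 17395806 with 0.88. Both libraries had clusters in each, with mean highest scores of 0.92 ± 0.11 and 1.05 ± 0.02 (SD, n = 2 for each). Wide cover like that of the NK window was thus listed to its right and not to its left within these 80 kb, while the single shared region on the left had a series score of 0.99, above those of 4 of the 5 shared regions inside the window. On the left and right of the Dorsocross window, both libraries covered 3.39% and 7.32% of 80 kb.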

How the data were processed

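The deposited lists give enriched intervals with a score of unstated scale set by the authors, in FlyBase release 5 per the file headers. The submitters' processing notes name Bowtie 0.12.7. How intervals were called, with which threshold, and how the series list was made was not given in the sources used here. The titles give each ChIP library an input of the same replicate number and do not say how the inputs were used. Inputs on their own were not analysed here. The windows, genes and comparisons were chosen with earlier results of these data known. Intervals on the 6 arms (X, 2L, 2R, 3L, 3R, 4) were kept, positions are 1-based, and overlap means at least 1 bp. A region was seen in a library where a cluster overlapped it; its highest cluster score entered the mean. For pairs, the replicate 2 cluster with the most overlap was taken for each replicate 1 cluster. Regions named are those seen in both libraries, the highest-scoring and longest clusters and the regions next to each window edge. Other regions, clusters and the 80 kb on each side were named after their values were seen. With 2 libraries of 1 group no test was made. Motif and protein comparisons were planned and not made, since no sequence was used here. Covered and shared bases were checked on 50 simulated pairs of lists, and all 50 equalled a base-by-base count. Lists were read with Python 3.11.15 and numpy 2.4.6 and drawn with matplotlib 3.10.9. Gene names and order are from RefSeq's table of release 6.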

Additional observations from a re-analysis of the deposited data

How the results depend on the processing

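Of 33 values recomputed for 6 results, 27 stayed within 1.5 times (counts) or 1 SD of the replicates (shares and scores). The SD is that of the 2 libraries' own values, so the score of a single library always lies within 1 SD of their mean. For shares it is wide, 19.7 (NK) and 12.4 (Dorsocross). A Dorsocross share of 38.9% with the window widened by 10 kb, against 49.3%, thus counted as unmoved. The 27 is therefore no measure of how stable the results are. Replicate 1 alone, without replicate 2, moved 3 values: with either library left out, NK regions seen ranged from 5 to 11, NK bases covered from 32.4 to 60.3% and Dorsocross bases covered from 52.2 to 69.7%, since the shared set is limited by replicate 2. In the series list the highest NK score was 1.11 in place of 1.33, and the cause was not tested. The 1.33 is a mean of clusters at different places in the 2 libraries. Widening the NK window by 80 kb on each side, chosen after the data had been seen, gave 11 regions seen in both, by adding sequence, and a highest score of 1.68. Either library alone gave 3 Dorsocross regions, and single libraries gave highest scores of 1.17 to 1.48 (NK) and 2.12 to 2.35 (Dorsocross). No paired analysis was possible because the only lists are of 1 group, the ChIP libraries. Depth is unknown, so the absence of a cluster does not show the absence of dRING.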
